A study of Oryza sativa with 10 samples.

Results

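The flag leaf is the uppermost leaf of the rice shoot and the main source of carbon for the filling grain. Flag leaves of field-grown rice (Oryza sativa), wild-type cultivar Nijinokirameki, were compared between green manure (GM) and chemical fertilizer (CF). These were 6 of the 10 libraries of the study, 3 per regime, chosen by their labels alone. All 6 were collected at day 5 after flowering in 2024, about 15 weeks after sowing. The basal dressing under CF was 56 kg/ha of N, 176 kg/ha of PO4 and 56 kg/ha of K. GM plants grew on soil into which hairy vetch, a legume, had been plowed, with no chemical fertilizer added. The other 4 libraries are endosperm of the same cultivar, day and regimes, 2 per regime, and are used only to ask whether the leaf difference also holds there. The title of the series places the comparison in work on heat resilience of the developing grain. Neither the number of plants behind a leaf replicate nor the number of plots per regime is stated in the labels. The p-values below may therefore measure only the spread between these samples, and plot and regime cannot be told apart. No temperature is recorded for any sample.

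At flowering the flag leaf fixes carbon, stores part of it by day as starch in its chloroplasts, and sends sucrose to the panicle. It also holds much of the nitrogen and iron that later move to the grain. Ribosomes, chaperones and defence compounds such as the diterpenoid phytoalexins of rice are made in the same leaf cells, and their genes are often regulated as groups.

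Levels are CPM, read counts scaled to a common library size. The 3 values given for a regime are its replicates 1, 2 and 3, written CF1 to CF3 and GM1 to GM3. A change given with an SE and no unit is a log2 change of GM against CF. A gene was called at a Benjamini-Hochberg adjusted p under 0.05 in edgeR's quasi-likelihood test over all genes tested. "Rose" and "fell" refer to GM relative to CF and to called genes only. Of 20208 genes tested, 499 rose and 95 fell, which is 2.47% and 0.47%, or 2.94% together. The 3 GM libraries and the 3 CF libraries did not overlap for any of the 594 called genes. The same separation held for 22.3% of all genes tested, 12.5% with GM above and 9.76% with GM below, so it is common beyond the called genes. Changes were mostly moderate. The median log2 change was 0.55 among the rises and −0.48 among the falls, and 77 rises and 3 falls reached 2-fold. Over all genes tested the median log2 change was 0.00.

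Depth and single libraries bear on all counts of calls. CF libraries held 20247748, 18540688 and 25827356 counted reads and GM libraries 12960498, 12500336 and 15933394, so each GM library was shallower than each CF library. With all libraries thinned to the depth of the shallowest, 432 genes rose and 91 fell. Calls were far fewer without CF2, with 35 rises and 5 falls, or without CF3, with 63 and 7. Without GM2 there were 262 and 51, without GM3 there were 358 and 40, and without GM1 there were 729 and 204. Of the 120 called genes given with values below, 28 kept their call whichever single library was left out, and a gene among these is said to have kept its call throughout. Of these 120 calls 90 ended without CF2, 71 without CF3, 47 without GM2, 42 without GM3, 28 without CF1 and 12 without GM1. The leaf was recognisable by its markers. All 18 mesophyll and leaf markers passed the filter on low counts, against 6 of 52 endosperm markers and 3 of 14 markers of dividing cells, and edgeR called none of these. At an unadjusted p under 0.05 the counts were 3 of 18, 0 of 6 and 0 of 3. DESeq2 called 2 of the leaf markers and none of the others, and limma-voom called none. Of 4 vascular and 3 root markers 2 and 1 were tested. None was called by edgeR, DESeq2 or limma-voom, but 1 vascular marker and the root marker had an unadjusted p under 0.05. The vascular median was −0.44, and the root marker, with a log2 change of 0.42, lay higher in all GM than in all CF libraries. The part of such cells in the other results was not tested.

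**Figure D1:**
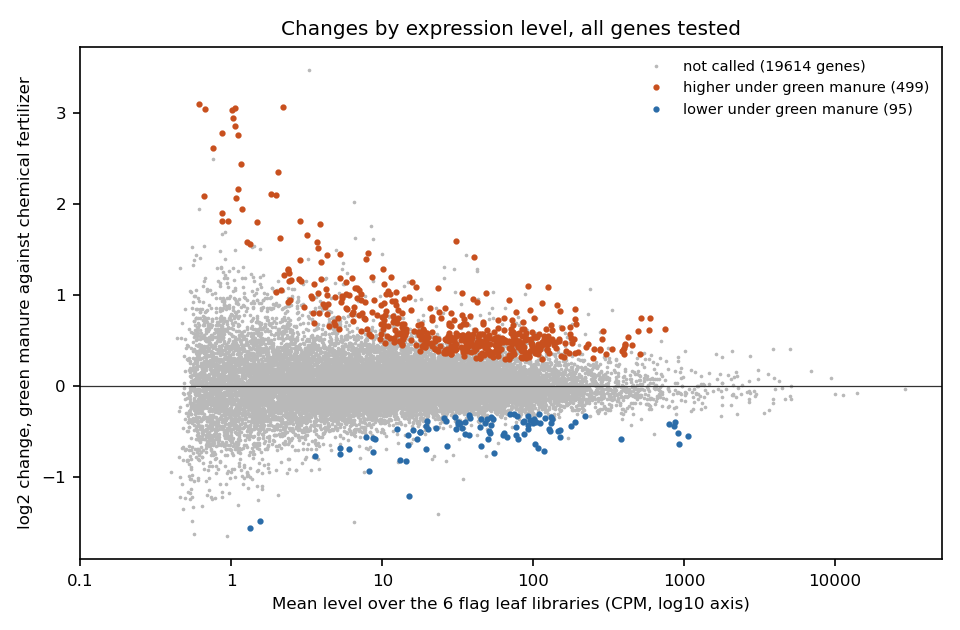
Log2 change (GM against CF, y axis) against mean CPM over the 6 flag leaf libraries (x axis, log10) for the 20208 genes tested. The 499 genes that rose are orange and the 95 that fell are blue. The 17 rises of 4-fold or more all lie below 5 CPM.

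Genes of protein synthesis rose together. Of 183 genes annotated as cytosolic ribosomal proteins 167 were tested, 93 rose and none fell, and their median log2 change was 0.46. In all, 162 of the 167 had a positive log2 change. In the sum over the whole list the CPM were 8233, 7919 and 7525 under CF and 12117, 10534 and 9568 under GM. Each GM sum lay above each CF sum, and the highest was GM1. RPL35A.3 (Os05g0556900), a protein of the large ribosomal subunit, stood at 29.2, 29.2 and 26.2 CPM under CF and 56, 44.8 and 43.7 CPM under GM (log2 change 0.77, SE 0.10, adjusted p = 0.0056). Its regimes did not overlap, and it kept its call throughout. A gene for a large-subunit protein annotated as similar to L27a-3 (Os07g0613200) had 22.7, 23.6 and 23.3 CPM under CF and 35.5, 32.8 and 33.1 CPM under GM (log2 change 0.54, SE 0.08, adjusted p = 0.0075). Because the deposited values count unique reads, a ribosomal protein gene with a near-identical copy is counted only in part. Leaving out CF2 ended the call of the L27a-3 gene (adjusted p up to 0.055).

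Rises were also called in other steps of translation. Among 73 initiation and elongation factors 14 rose, with a median log2 change of 0.16, and none fell. EIF3E (Os07g0222300), a subunit of the initiation factor that loads the small ribosomal subunit, had 59.5, 62.2 and 59.6 CPM under CF and 86.2, 82.1 and 75.9 CPM under GM (log2 change 0.43, SE 0.07, adjusted p = 0.016). Translation elongation factor EF-1 alpha, which carries aminoacyl-tRNA to the ribosome, is encoded by several genes, of which RFA1, RFA4, RFA3 and RFA2 rose. RFA1, RFA4 and RFA3 lie next to each other among the genes tested on chromosome 3, by their locus identifiers. The log2 changes of these 3 were 0.42 (SE 0.09, adjusted p = 0.039), 0.41 (SE 0.09, adjusted p = 0.032) and 0.46 (SE 0.09, adjusted p = 0.025). As close copies of each other they may share reads, so their separate values are uncertain. Ribosome biogenesis and nucleolar processing had 14 rises and no fall among 92 genes tested, with a median log2 change of 0.23. Some of these rises are ribosomal protein genes that are also counted on the list of cytosolic ribosomal proteins. A nucleolar protein gene (Os03g0352300) had 35.3, 35.4 and 34.9 CPM under CF and 60.3, 60.5 and 50.7 CPM under GM (log2 change 0.70, SE 0.08, adjusted p = 0.0042) and kept its call throughout. The call of EIF3E and RFA3 ended without CF2 or CF3 (adjusted p up to 0.161), and without CF1, CF2, CF3 or GM2 that of RFA1 and RFA4 did so (up to 0.218).

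The ribosomes of the organelles and the proteasome gave few calls or none. Among 55 plastid ribosomal protein genes 2 rose, with a median log2 change of 0.18, among 9 mitochondrial ones 1 rose, and among 51 aminoacyl-tRNA synthetases 1 rose. Those shares were 3.64%, 11.1% and 1.96%, against 2.47% of all genes. UCIP11 (Os03g0856500), a plastid ribosomal protein gene, was among these rises, at 74.1, 120.2 and 108 CPM under CF and 158, 189 and 216 CPM under GM (log2 change 0.89, SE 0.18, adjusted p = 0.043). None of 52 proteasome subunits was called by edgeR, none had an unadjusted p under 0.05, and DESeq2 and limma-voom called none. The ribosomal protein count depended on single libraries. It was 1 without CF2, 2 without CF3, 60 without CF1 and 52 without GM2, and it was 87 and 109 without GM1 and GM3. Initiation and elongation factors kept 0 calls without CF2 or CF3, 4 without CF1, 5 without GM2 and 9 without GM3. Ribosome biogenesis kept 1 without CF2 and 1 without CF3, 9 without CF1 and 8 without GM2. Without CF2, CF3, GM1, GM2 or GM3 the call of UCIP11 ended (adjusted p up to 0.204).

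**Figure D2:**
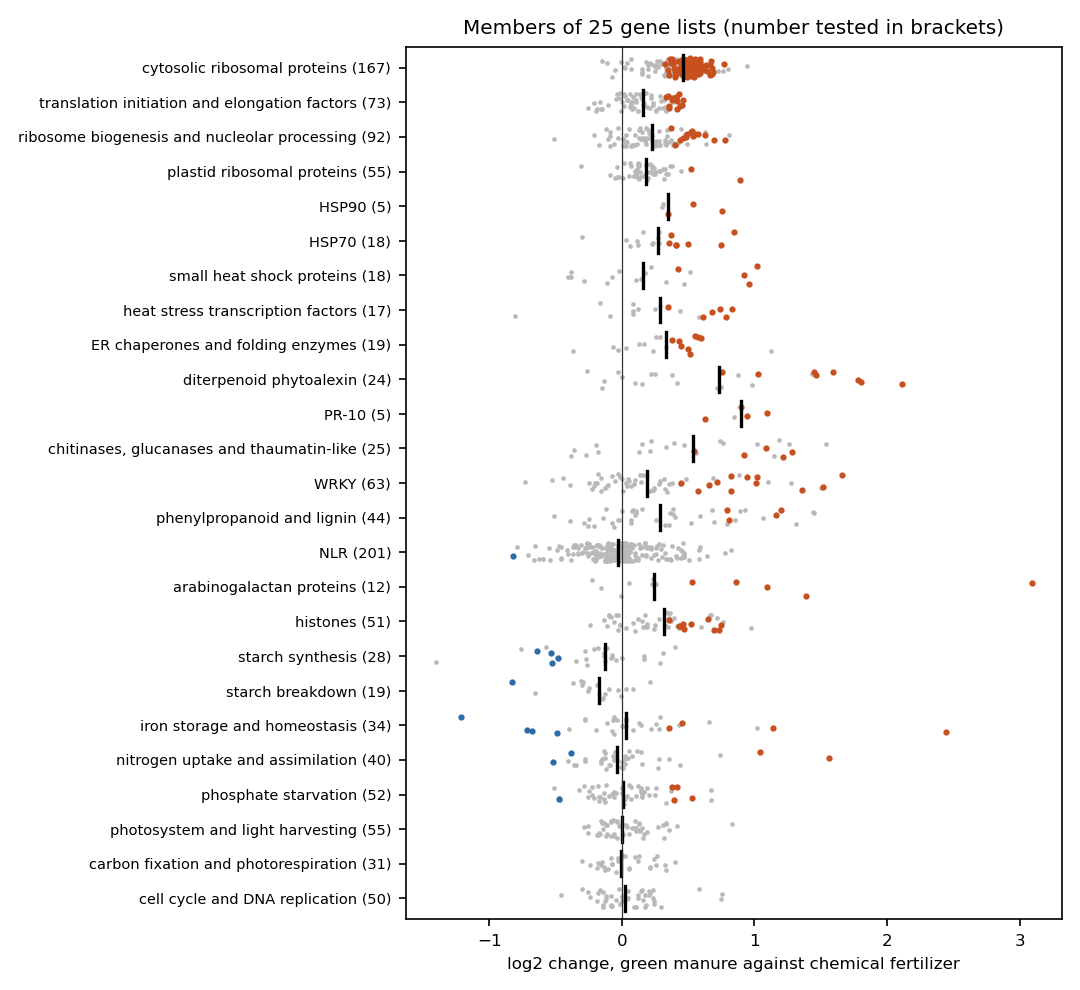
Log2 change of each tested member (points, GM against CF) in 25 gene lists, with called rises in orange, called falls in blue and genes not called in grey. Black bars are list medians, 0.46 for cytosolic ribosomal proteins, 0.73 for diterpenoid phytoalexin genes and −0.13 for starch synthesis. Vertical scatter within a list has no meaning.

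Chaperones and heat stress factors rose as well. Chaperones help other proteins to fold or to stay folded, and heat stress transcription factors (HSFs) take part in regulating their genes. In the cytosol and organelles, 3 of 5 HSP90 genes, 7 of 18 HSP70 genes and 4 of 18 small heat shock protein genes rose, and none of these lists had a fall. Their median log2 changes were 0.35, 0.27 and 0.16. J-domain genes as a list stood near the background, with 4 rises and no fall among 108, or 3.7% against 2.47% of all genes. Their median was −0.02, GM lay above CF in all libraries for 12 of them and below for 15. Over all genes tested, GM lay above in 12.5% and below in 9.76%. The 3 HSP100 and ClpB genes were not called, and none had an unadjusted p under 0.05. DESeq2 and limma-voom called none of them.

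HSP24.1 (Os02g0758000), annotated as a mitochondrial small heat shock protein, went from 33.1, 29.3 and 33.6 CPM under CF to 64.7, 70.5 and 59.5 CPM under GM (log2 change 1.02, SE 0.09, adjusted p = 0.0014). HSP20 (Os06g0253100), of the same family, went from 26.3, 32.6 and 28.8 CPM to 54.8, 59.2 and 52 CPM (log2 change 0.92, SE 0.09, adjusted p = 0.0024). The regimes lay far apart in both, and both kept their call throughout. HSP17.9A (Os03g0266300), of class I, had 30.9, 32.3 and 30.3 CPM under CF and 44.9, 38 and 42.6 CPM under GM (log2 change 0.43, SE 0.08, adjusted p = 0.023). HSP18.0-CII, of class II, had 1.99, 2.1 and 2.75 CPM and 4.77, 5.25 and 3.57 CPM (log2 change 0.96, SE 0.21, adjusted p = 0.036). In HSP17.9A the lowest GM library was GM2, and in HSP18.0-CII it was GM3. HSP101 (Os05g0519700), the disaggregase of acquired thermotolerance, had 12.1, 14.1 and 14.7 CPM under CF and 13.3, 16.3 and 13.1 CPM under GM, and its regimes overlapped (log2 change 0.06, SE 0.12, adjusted p = 0.849). The sign of that difference reversed without CF1 or without GM2. Leaving out CF1, CF2, CF3 or GM2 ended the call of HSP18.0-CII (adjusted p up to 0.138), and without CF1, CF2, CF3 or GM3 that of HSP17.9A did so (up to 0.136).

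HSP82A (Os08g0500700), an HSP90, stood at 387, 356 and 414 CPM under CF and 589, 746 and 616 CPM under GM (log2 change 0.75, SE 0.10, adjusted p = 0.0063). HSP71.1 (Os03g0276500), an HSP70, stood at 425, 426 and 479.8 CPM and 681, 837 and 712 CPM (log2 change 0.74, SE 0.10, adjusted p = 0.0056). In both, GM2 was the highest library. The cytosolic HSP70 gene cHsp70-1 (Os01g0840100) had 130.4, 128 and 147 CPM under CF and 208, 279 and 240.3 CPM under GM (log2 change 0.84, SE 0.11, adjusted p = 0.0055). OsDjB7 (Os05g0562300), a J-domain cochaperone of HSP70, had 17.1, 19.3 and 19.7 CPM and 32.3, 36.2 and 32.6 CPM (log2 change 0.85, SE 0.09, adjusted p = 0.0024) and kept its call throughout. Another J-domain gene, OsDjC28, differed by 0.45 (SE 0.08, adjusted p = 0.020). The call of HSP82A, cHsp70-1 and HSP71.1 ended without CF2 (adjusted p up to 0.068), and without CF1, CF2 or GM3 that of OsDjC28 did so (up to 0.108).

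Among 17 HSF genes 6 rose and none fell, with a median log2 change of 0.29. HSFB2B (Os08g0546800), a class B factor, had 11, 10.8 and 11.6 CPM under CF and 20.3, 20.2 and 19.2 CPM under GM (log2 change 0.83, SE 0.09, adjusted p = 0.0031), a tight separation that kept its call throughout. HSFB2C (Os09g0526600) had 58, 46.3 and 47.7 CPM and 70.4, 85.6 and 76.3 CPM (log2 change 0.61, SE 0.10, adjusted p = 0.015). SPL7 (Os05g0530400), a class A factor whose mutants form leaf lesions, had 27.6, 25.3 and 25.7 CPM and 36.5, 46.5 and 42.6 CPM (log2 change 0.68, SE 0.09, adjusted p = 0.0069). Of the other 3 that rose, HSFB2A and HSFB1 are also of class B and HSFA2D is of class A. HSFA2C (Os10g0419300) had 29.4, 27.6 and 29.5 CPM under CF and 35, 35.9 and 34.9 CPM under GM without overlap but missed the threshold (log2 change 0.29, SE 0.07, adjusted p = 0.059). Without CF2 the call of SPL7 ended (adjusted p up to 0.065), and without CF2 or CF3 that of HSFB2C did so (up to 0.094).

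Folding enzymes of the endoplasmic reticulum (ER), where secreted proteins mature, had 8 rises and no fall among 19 genes tested, with a median log2 change of 0.33. PDIL1-1 (Os11g0199200), a protein disulfide isomerase, had 96.9, 98.6 and 92.4 CPM under CF and 143, 142 and 136 CPM under GM (log2 change 0.55, SE 0.07, adjusted p = 0.0055) and kept its call throughout. BIP1 (Os02g0115900), the ER HSP70, had 238, 219 and 238 CPM and 379, 341 and 332 CPM (log2 change 0.60, SE 0.08, adjusted p = 0.0063). The calreticulin gene CRO1 (Os07g0246200) had 192, 182 and 196 CPM and 261, 256 and 251 CPM (log2 change 0.43, SE 0.07, adjusted p = 0.016), and HSP90 (Os06g0716700), which carries the synonym GRP94, had 365, 327 and 342 CPM and 503, 506 and 495 CPM (log2 change 0.54, SE 0.08, adjusted p = 0.0084). These regimes were well apart in all 4 genes. O3 (Os07g0644100), also named bZIP60, a transcription factor of ER homeostasis, rose by 0.43 (SE 0.08, adjusted p = 0.021). Without CF2 and CF3 in turn, the rises were 1 and 2 in the ER list, 0 and 2 among HSP70, 0 and 1 among HSP90, 1 and 2 among HSFs and 2 and 2 among small heat shock proteins. Without CF1 they were 7, 3, 2, 3 and 2. Without GM3 they were 4 in the ER list, 4 among HSP70 and 3 among HSFs, and without GM2 they were 4 among HSP70 and 3 among HSFs. J-domain rises were 1 without CF2 or GM3 and 2 without CF1 or CF3. With upper-quartile scaling 3 HSP70 genes were called. Leaving out CF2 ended the call of BIP1 (adjusted p up to 0.068), and without CF2 or CF3 that of HSP90 and CRO1 did so (up to 0.105). The call of O3 ended without CF1, CF2, CF3, GM2 or GM3 (adjusted p up to 0.105).

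**Figure D3:**
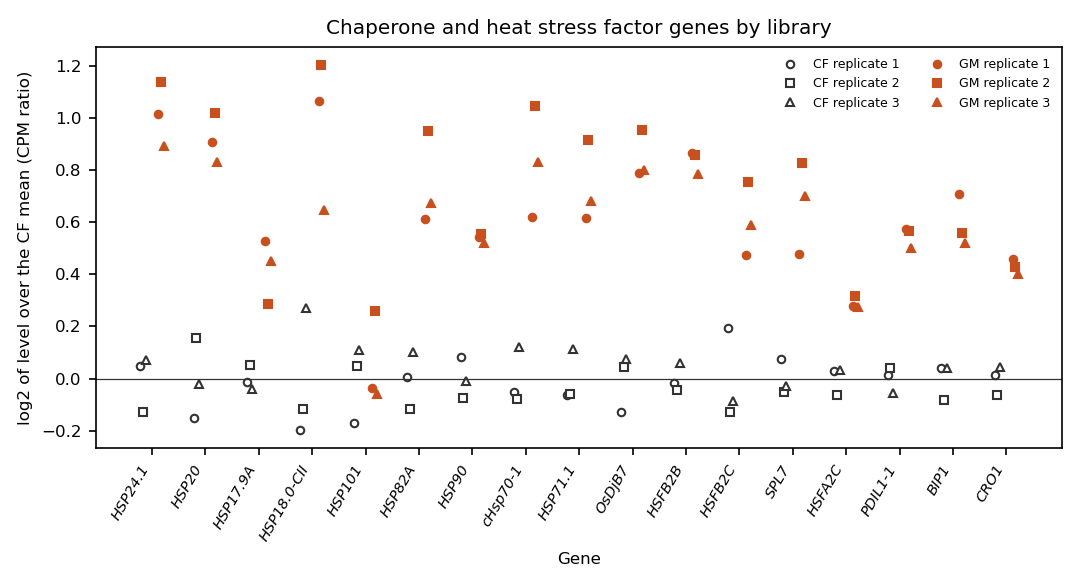
Level of 17 chaperone and heat stress factor genes in each library as log2 of its ratio to the CF mean (y axis), CF replicates open and GM replicates filled. GM libraries lie above CF libraries for every gene shown except HSP101, whose log2 change was 0.06.

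Defence genes rose in several families. Rice makes diterpenoid phytoalexins, the momilactones and phytocassanes, through copalyl diphosphate synthases (CPS), kaurene synthase-like cyclases (KS) and P450 enzymes. Of 39 genes on that list 24 were tested, 8 rose and none fell, and the median log2 change was 0.73. The 5 genes given here of the momilactone cluster on chromosome 4, placed there by their locus identifiers, all rose. Not every tested gene in that stretch of locus identifiers rose. CPS4 (Os04g0178300), which makes the syn-copalyl diphosphate at the head of the pathway, had 17.7, 16.7 and 11.6 CPM under CF and 39.3, 57.7 and 40.8 CPM under GM (log2 change 1.59, SE 0.19, adjusted p = 0.0092). KS4 (Os04g0179700), the cyclase that follows it, had 2.09, 1.78 and 1.34 CPM and 7.79, 5.02 and 5.04 CPM (log2 change 1.78, SE 0.24, adjusted p = 0.0056). MAS (Os04g0179200), the dehydrogenase of a late step, had 1.35, 1.35 and 1.07 CPM and 5.56, 4.25 and 3.38 CPM (log2 change 1.81, SE 0.24, adjusted p = 0.0056). In all 3 the lowest GM library exceeded the highest CF library, and all 3 kept their call throughout.

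Both P450 genes of that cluster rose. CYP99A2 (Os04g0180400) had 4.04, 2.69 and 1.8 CPM under CF and 9.69, 7.11 and 6.25 CPM under GM (log2 change 1.45, SE 0.27, adjusted p = 0.023). CYP99A3 (Os04g0178400) had 8.18, 9.81 and 10.4 CPM and 11.8, 19.2 and 16.9 CPM (log2 change 0.75, SE 0.16, adjusted p = 0.037), with GM1 close to the CF libraries. Phytocassane genes differed among themselves. KS7 (Os02g0570400), the cyclase of that branch, had 5.38, 3.77 and 3.67 CPM and 10.3, 17.3 and 7.85 CPM (log2 change 1.46, SE 0.29, adjusted p = 0.039), with GM2 highest. CYP76M8, a P450 gene also on chromosome 2 by its locus identifier, rose from low levels (log2 change 1.03, SE 0.23, adjusted p = 0.041). CPS2 (Os02g0571100), which supplies the phytocassane branch with its precursor, had 153, 188 and 219 CPM under CF and 142, 238 and 180.2 CPM under GM, with full overlap (log2 change 0.00, SE 0.20, adjusted p = 0.999). DPF (Os01g0196300), a bHLH transcription factor that activates diterpenoid phytoalexin genes, had 0.748, 0.808 and 0.536 CPM and 3.18, 2.55 and 3.19 CPM (log2 change 2.11, SE 0.26, adjusted p = 0.0046) and kept its call throughout. Rises on the list numbered 4 without CF2, 4 without CF3 and 5 without GM2. Without CF2, CF3 or GM1 the call of KS7 ended (adjusted p up to 0.181), and without CF2, CF3 or GM2 that of CYP99A2 did so (up to 0.112). Leaving out CF1, CF2, CF3, GM2 or GM3 ended the call of CYP99A3 and CYP76M8 (adjusted p up to 0.167).

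Pathogenesis-related (PR) proteins, secreted or cytosolic proteins that accumulate after infection, rose in several families. Of the 5 PR-10 genes tested 4 rose, 3 of which are neighbours on chromosome 12. RSOSPR10 (Os12g0555000) had 71.2, 57.8 and 47.6 CPM under CF and 128, 137 and 112 CPM under GM (2.14-fold, adjusted p = 0.0056), and PR10B (Os12g0555200) had 55, 46.9 and 39 CPM and 94.7, 91.3 and 85.1 CPM (log2 change 0.94, SE 0.11, adjusted p = 0.0044). Both kept their call throughout. PR10A (Os12g0555500), known as PBZ1, had 705, 543 and 503 CPM and 907, 946 and 849 CPM (log2 change 0.63, SE 0.12, adjusted p = 0.023), and RPR10c, annotated as a nonfunctional pseudogene, changed by 0.90 (SE 0.21, adjusted p = 0.042). In RSOSPR10, PR10B, PR10A and RPR10c alike, CF1 was the highest CF library and CF3 the lowest. These genes are close relatives, so reads shared between them may be missing from all 4. The call of PR10A ended without CF2, CF3 or GM2 (adjusted p up to 0.130), and without CF2, CF3, GM2 or GM3 that of RPR10c did so (up to 0.202).

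Among chitinases, glucanases and thaumatin-like proteins 5 of 25 rose, with a median log2 change of 0.54 and no fall. The class III chitinase gene CHIB1 (Os10g0416500) had 6.53, 6.41 and 4.82 CPM under CF and 10.8, 17.8 and 14.3 CPM under GM (log2 change 1.28, SE 0.18, adjusted p = 0.0085). The thaumatin-like gene PR5 (Os12g0628600) had 100.5, 83 and 59.3 CPM and 188, 189 and 139 CPM (log2 change 1.09, SE 0.20, adjusted p = 0.042), and another thaumatin-like gene (Os03g0663600) differed by 0.92 (SE 0.19, adjusted p = 0.026). PR1A (Os07g0129200) had 7.98, 6.52 and 4.78 CPM and 15.5, 14.1 and 12 CPM (log2 change 1.12, SE 0.18, adjusted p = 0.013), one of 2 rises among 19 genes of PR-1 and other PR families. PR1B, at 1.05, 2.8 and 1.22 CPM and 3.5, 5.1 and 2.81 CPM, differed by 1.19 (SE 0.36, adjusted p = 0.117) and was not called. Without CF2 and CF3 in turn, the rises were 2 and 2 among PR-10, 0 and 2 among chitinases and relatives, and 0 and 1 among PR-1 and other families. Without GM2 and GM3 in turn they were 2 and 3 among PR-10, 3 and 2 among chitinases and relatives, and 1 and 1 among PR-1 and other families. Without CF2 the call of CHIB1 and PR1A ended (adjusted p up to 0.074), and without CF2, CF3 or GM3 that of the gene Os03g0663600 did so (up to 0.135). Leaving out CF2, GM1 or GM2 ended the call of PR5 (adjusted p up to 0.188).

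WRKY proteins are a plant family of transcription factors, many of them active in defence. Of 63 tested 12 rose and none fell, with a median log2 change of 0.19. WRKY19 (Os05g0571200) had 1.74, 1.4 and 1.45 CPM under CF and 4.77, 4.56 and 5.23 CPM under GM (log2 change 1.66, SE 0.19, adjusted p = 0.0031). WRKY28 (Os06g0649000), annotated as a transrepressor that responds to pathogen patterns, had 2.24, 2.16 and 1.49 CPM and 5.88, 5.25 and 5.55 CPM (log2 change 1.52, SE 0.20, adjusted p = 0.0055). WRKY24 (Os01g0826400), annotated as a negative regulator of abscisic acid and gibberellin signalling, had 7.63, 7.71 and 7.23 CPM and 14.7, 15.6 and 15.2 CPM (log2 change 1.01, SE 0.10, adjusted p = 0.0024). The 3 kept their call throughout, and their GM libraries lay close together. WRKY45 (Os05g0322900), a central factor of salicylate-induced blast resistance, overlapped between regimes, with 161, 119 and 136 CPM and 159, 272 and 237 CPM (log2 change 0.68, SE 0.20, adjusted p = 0.128). NH1 (Os01g0194300), the rice homologue of the salicylate coregulator NPR1, was at 27.2, 22.5 and 20 CPM and 27.2, 31.6 and 28.2 CPM and was not called (log2 change 0.33, SE 0.11, adjusted p = 0.163). Of 17 genes on the salicylate list 2 rose and 1 fell, with a median log2 change of 0.23. The fall was BH1, annotated as a beta-glucosidase of hull pigmentation. Of the rises, OsAAA-ATPase1, annotated in salicylate-mediated blast defence, had 2.79, 2.53 and 1.64 CPM and 6.2, 6.57 and 5.93 CPM (log2 change 1.44, SE 0.20, adjusted p = 0.0069), and NPR4 changed by 1.08 (SE 0.21, adjusted p = 0.024). WRKY rises were 3 without CF2, 4 without CF3, 6 without GM2 and 7 without GM3. In the fit of all 10 libraries 1 was called, and with the stricter filter of 5 CPM 8 were. The call of NPR4 ended without CF2, CF3 or GM2 (adjusted p up to 0.126).

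Receptors gave few calls. CEBIP (Os03g0133400), which binds chitin fragments at the cell surface, had 16.9, 14.7 and 13.3 CPM under CF and 34, 33.1 and 28.1 CPM under GM (log2 change 1.08, SE 0.11, adjusted p = 0.0024). The gene ASLRK (Os01g0742400) had 25.9, 23.9 and 17.2 CPM and 53.4, 63.6 and 60.8 CPM (log2 change 1.42, SE 0.14, adjusted p = 0.0025). Both kept their call throughout. SDRLP8, an S-domain receptor-like protein, had 3.84, 2.91 and 2.95 CPM and 6.2, 8.73 and 7.08 CPM (log2 change 1.18, SE 0.18, adjusted p = 0.0092). Among 363 receptor-like kinases 8 rose and 2 fell, or 2.2% and 0.551%, near the 2.47% and 0.47% of all genes. The NLR family of intracellular immune receptors had no rise and 1 fall, 0.498%, among 201 genes tested. That family had 27 genes at an unadjusted p under 0.05, and DESeq2 called 3 and limma-voom 1. The fall was Os11g0492300, at 15.7, 17 and 17.8 CPM under CF and 6.67, 9.42 and 12.3 CPM under GM (log2 change −0.82, SE 0.17, adjusted p = 0.032). Receptor-like kinase rises numbered 0 without CF2, CF3 or GM2, 3 without GM3, 16 without CF1 and 22 without GM1. Receptor-like kinase falls numbered 0 without CF1, CF2, CF3 or GM3. RBOHE (Os01g0835500), an NADPH oxidase that makes superoxide at the plasma membrane, fell from 126, 114 and 134 CPM to 79.9, 73.1 and 87.2 CPM (log2 change −0.64, SE 0.09, adjusted p = 0.0069) and kept its call throughout. Without CF2 or CF3 the call of SDRLP8 ended (adjusted p up to 0.074), and without CF2, CF3 or GM2 that of Os11g0492300 did so (up to 0.148).

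Phenylpropanoid enzymes, which lead to lignin and phenolic compounds, had 4 rises and no fall among 44 genes tested, with a median log2 change of 0.29. 4CL5 (Os08g0448000), a 4-coumarate:coenzyme A ligase, had 6.68, 5.5 and 3.56 CPM under CF and 9.93, 12.7 and 13 CPM under GM (log2 change 1.20, SE 0.21, adjusted p = 0.018). A cinnamate-4-hydroxylase gene (Os01g0820000) changed by 1.16 (SE 0.24, adjusted p = 0.029), and the alcohol dehydrogenase gene CAD6 by 0.81 (SE 0.16, adjusted p = 0.025). Rises numbered 0 without CF2 or GM3, 1 without CF3 or GM2, and 7 without GM1. GSTU12 (Os10g0527800), 1 of 2 glutathione S-transferases that rose among 50, had 1.84, 1.99 and 1.72 CPM and 5.88, 5.95 and 4.85 CPM (log2 change 1.58, SE 0.18, adjusted p = 0.0031) and kept its call throughout. The other was GSTZ2, with a change of 0.51 (SE 0.11, adjusted p = 0.035). PRX16, with a change of 0.93 (SE 0.15, adjusted p = 0.013), was the 1 rise among 21 class III peroxidases. Rises were 4% of the glutathione S-transferases and 4.76% of the peroxidases, against 2.47% of all genes. Leaving out CF2 or CF3 ended the call of PRX16 (adjusted p up to 0.074), and without CF2 or GM3 that of 4CL5 did so (up to 0.091). The call of Os01g0820000 and GSTZ2 ended without CF2, CF3, GM2 or GM3 (adjusted p up to 0.172), and without CF1, CF2, CF3, GM2 or GM3 that of CAD6 did so (up to 0.130).

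**Figure D4:**
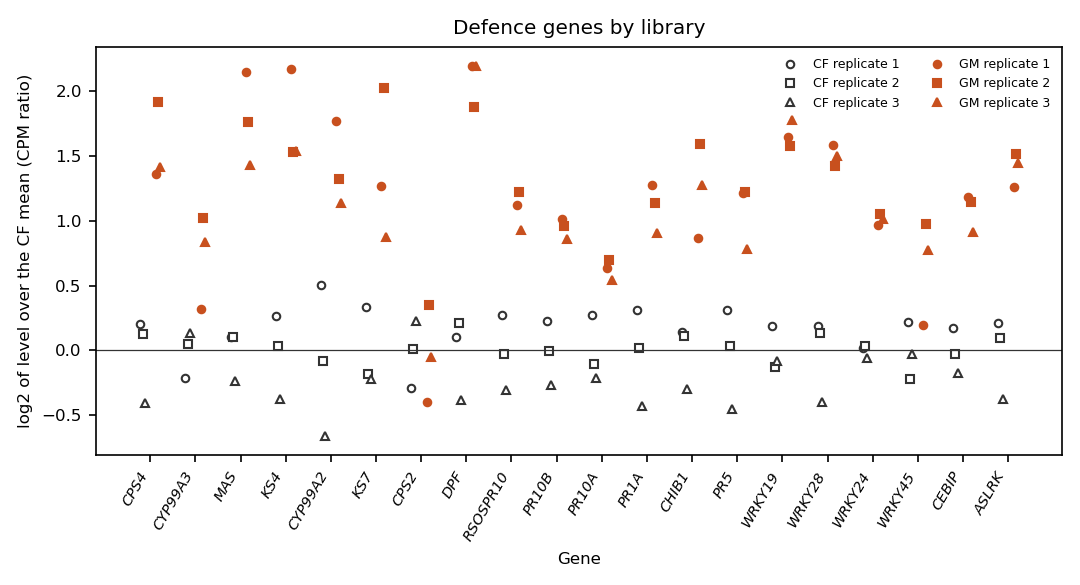
Level of 20 defence genes in each library as log2 of its ratio to the CF mean (y axis), CF replicates open and GM replicates filled. The 3 GM libraries lie above the CF libraries for all genes shown except CPS2 and WRKY45, whose log2 changes were 0.00 and 0.68.

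Genes of starch synthesis fell. Of 33 genes of starch synthesis 28 were tested, 4 fell and none rose, and the median log2 change was −0.13. The sum over the list was 3754, 4088 and 3912 under CF and 3501, 2786 and 3062 under GM, in CPM. Each GM sum lay below each CF sum, with GM1 nearest to the CF libraries. GBSSII (Os07g0412100), the granule-bound starch synthase of leaves, had 1003, 1234 and 1148 CPM under CF and 896, 594 and 687 CPM under GM (log2 change −0.64, SE 0.14, adjusted p = 0.041). SBE4 (Os04g0409200), the branching enzyme IIa found in leaves, had 89.2, 105 and 113 CPM and 73, 66.6 and 73.1 CPM (log2 change −0.53, SE 0.09, adjusted p = 0.017). SBE3 (Os02g0528200), branching enzyme IIb, had 85.2, 91.3 and 95.5 CPM and 71.6, 57.5 and 58.7 CPM (log2 change −0.54, SE 0.09, adjusted p = 0.016). The starch phosphorylase gene PHO1 (Os03g0758100) had 96.8, 123 and 105 CPM and 82.5, 73.4 and 76.6 CPM (log2 change −0.48, SE 0.09, adjusted p = 0.023). In each of the 4 the highest GM library stayed below the lowest CF library. Without CF2 or CF3 the call of SBE4 ended (adjusted p up to 0.098), and without CF2, CF3 or GM3 that of SBE3 did so (up to 0.094). Leaving out CF2, CF3, GM2 or GM3 ended the call of GBSSII and PHO1 (adjusted p up to 0.162).

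The first step of the pathway varied widely between libraries. AGPL3 (Os05g0580000), a large subunit of ADP-glucose pyrophosphorylase, had 24.8, 47.3 and 30 CPM under CF and 16.3, 11.7 and 10.7 CPM under GM, did not overlap and missed the threshold (log2 change −1.41, SE 0.29, adjusted p = 0.063). AGPS1, a small subunit of that enzyme, had 31.9, 46.2 and 33.4 CPM and 31.5, 16.8 and 17.7 CPM, with GM1 close to the CF libraries (log2 change −0.76, SE 0.28, adjusted p = 0.243). Starch synthase SSI showed the same spread, with 190.2, 207 and 211 CPM and 186, 96.2 and 127 CPM (log2 change −0.57, SE 0.22, adjusted p = 0.246). SSIIIB and SBE1 had log2 changes of −0.26 (SE 0.09, adjusted p = 0.161) and −0.11 (SE 0.08, adjusted p = 0.506). RSR1 (Os05g0121600), an AP2 transcription factor that represses starch synthesis genes in rice grain, fell too, from 96.8, 113 and 107 CPM to 86.5, 67.3 and 81.8 CPM (log2 change −0.43, SE 0.10, adjusted p = 0.042). Falls in the list numbered 1 without CF2, 0 without CF3, 2 without GM2, 1 without GM3 and 8 without GM1. The call of RSR1 ended without CF2, CF3, GM2 or GM3 (adjusted p up to 0.184).

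Starch breakdown had 1 fall and no rise among 19 genes, with a median log2 change of −0.17. It was the beta-amylase gene BMY1 (Os07g0543100), at 14.6 to 23.1 CPM under CF, highest in CF2, and 9.14, 8.81 and 12.8 CPM under GM (log2 change −0.83, SE 0.19, adjusted p = 0.046). Sugar metabolism gave few calls. Trehalose-phosphate phosphatases, which remove a sugar signal, included a fall in TPP7 (Os09g0369400), from 35, 40.9 and 40.6 CPM to 26.5, 29.7 and 28.6 CPM (log2 change −0.46, SE 0.09, adjusted p = 0.022), and a rise in TPP9 of 0.99 (SE 0.20, adjusted p = 0.028). Among 51 sugar transporters 1 rose, or 1.96% against 2.47% of all genes. None of 26 genes of sucrose synthesis and cleavage was called by edgeR, DESeq2 or limma-voom, and 5 had an unadjusted p under 0.05. Sucrose-phosphate synthase SPS1 was at 329.9, 308 and 341 CPM and 239, 272 and 318 CPM, with overlap (log2 change −0.24, SE 0.10, adjusted p = 0.265). Without CF2, CF3 or GM3 the call of TPP7 ended (adjusted p up to 0.123), and without CF2, CF3, GM1 or GM2 that of BMY1 did so (up to 0.152). Leaving out CF1, CF2, CF3, GM2 or GM3 ended the call of TPP9 (adjusted p up to 0.117).

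Photosynthesis genes showed no called change. Of 55 photosystem and light-harvesting genes and 31 of carbon fixation and photorespiration edgeR called none, and the medians were 0.00 and −0.01. At an unadjusted p under 0.05 there were 4 and 7 genes, DESeq2 called 2 and 2, and limma-voom called none. CAB2R (Os01g0600900), a light-harvesting protein, had 3334, 3353 and 3342 CPM under CF and 3933, 3854 and 5553 CPM under GM, without overlap but with GM3 far above the rest (log2 change 0.41, SE 0.13, adjusted p = 0.134). RBCS3, a small subunit of Rubisco, had 4868, 4113 and 3942 CPM and 6739, 4787 and 5512 CPM (log2 change 0.40, SE 0.13, adjusted p = 0.145). Among 29 chlorophyll synthesis genes 1 rose, YLC1, a chaperone-like protein of the chlorophyll pathway, by 0.46 (SE 0.10, adjusted p = 0.036). That was 3.45% of the list, against 2.47% of all genes. Of 14 genes of chlorophyll breakdown and senescence none was called by edgeR, DESeq2 or limma-voom, and 1 had an unadjusted p under 0.05. The call of YLC1 ended without CF2, CF3, GM2 or GM3 (adjusted p up to 0.192).

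Iron genes moved in both directions. Plants store iron in ferritin and in the vacuole, and take up and move it with chelators and metal transporters. Of 53 genes listed 34 were tested, 4 fell and 4 rose, with a median log2 change of 0.03. The falls included storage genes. VIT1 (Os09g0396900, also named VIT2), a transporter that loads iron into the vacuole, had 20.1, 22.3 and 20.2 CPM under CF and 8.42, 12 and 6.76 CPM under GM (log2 change −1.21, SE 0.16, adjusted p = 0.0069). The ferritin gene FER1 (Os11g0106700) had 128, 138 and 132 CPM and 103, 81.4 and 64.4 CPM (log2 change −0.68, SE 0.14, adjusted p = 0.034). FER2 (Os12g0106000) had 143, 155 and 143 CPM and 106, 93.6 and 68.8 CPM (log2 change −0.72, SE 0.13, adjusted p = 0.023). In both ferritins GM3 was lowest and the CF libraries lay close together. The ferritins are close copies, so unique reads may part them imperfectly. YSL14, of the metal-nicotianamine transporter family, had 18, 19 and 18.7 CPM and 13.4, 13.4 and 13 CPM (log2 change −0.49, SE 0.09, adjusted p = 0.020). Without CF2 the call of VIT1 ended (adjusted p up to 0.053), and without CF2, CF3 or GM2 that of FER2 did so (up to 0.111). Leaving out CF2, CF3 or GM3 ended the call of YSL14 (adjusted p up to 0.107), and without CF1, CF2, CF3 or GM2 that of FER1 did so (up to 0.129).

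The rises included IMA1 (Os01g0647200), a small peptide that promotes iron uptake and is induced by iron deficiency. It had 8.62, 13.3 and 7.57 CPM under CF and 22.6, 20.5 and 21.3 CPM under GM (log2 change 1.14, SE 0.18, adjusted p = 0.015). The GM libraries lay close together above a more variable CF group, and the call was kept throughout. DMAS1 (Os03g0237100), which makes the iron chelator deoxymugineic acid, had 22.7, 23.8 and 20.7 CPM and 27.6, 30 and 28.3 CPM (log2 change 0.36, SE 0.09, adjusted p = 0.048), and the metal transporter gene NRAMP6 had 12.2, 11.6 and 10.7 CPM and 17.1, 14.1 and 16 CPM (log2 change 0.45, SE 0.11, adjusted p = 0.047). YSL7 (Os02g0116300), another metal-nicotianamine transporter, rose from near 0, with 0.199, 0.323 and 0.497 CPM and 2.86, 2.01 and 1.08 CPM (log2 change 2.44, SE 0.44, adjusted p = 0.019). It is 1 of the 17 rises of 4-fold or more from near-silent levels described below, and like most of these it was highest in GM1. Over the list, falls numbered 0 without CF2, 1 without CF3 and 2 without GM2. Rises numbered 2 without CF1, 1 without CF2, 1 without CF3, 7 without GM1 and 2 without GM3. They also numbered 2 under RLE or upper-quartile scaling, with DESeq2, at equal depth and in the fit of all 10 libraries. The call of YSL7 ended without CF2 or CF3 (adjusted p up to 0.101), and without CF1, CF2, CF3, GM1 or GM3 that of NRAMP6 did so (up to 0.229). Without CF1, CF2, CF3, GM2 or GM3 the call of DMAS1 ended (adjusted p up to 0.263).

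Other metals and sulfur gave 1 rise and 2 falls among 68 genes, or 1.47% and 2.94% against 2.47% and 0.47% of all genes. ZIFL10 (Os12g0132800), a transporter of the zinc-induced facilitator family, had 38.2, 34.1 and 35.9 CPM under CF and 24.3, 25.9 and 27.1 CPM under GM (log2 change −0.48, SE 0.08, adjusted p = 0.016), and its relative ZIFL13 changed by −0.57 (SE 0.13, adjusted p = 0.041). The serine acetyltransferase gene SAT2;2, on the way to cysteine, rose by 0.86 (SE 0.16, adjusted p = 0.020). FWL4 (Os03g0830400), also named PCR6, fell from 6.38, 8.62 and 7.46 CPM to 4.13, 4.71 and 4.98 CPM (log2 change −0.69, SE 0.16, adjusted p = 0.041). None of 43 potassium genes was called by edgeR or limma-voom, DESeq2 called 2, and 8 had an unadjusted p under 0.05. Leaving out CF2 or CF3 ended the call of ZIFL10 (adjusted p up to 0.072), and without CF2, CF3, GM2 or GM3 that of SAT2;2 did so (up to 0.117). The call of ZIFL13 ended without CF1, CF2, CF3, GM2 or GM3 (adjusted p up to 0.203), and without CF2, CF3, GM1, GM2 or GM3 that of FWL4 did so (up to 0.159).

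Nitrogen, supplied as fertilizer in one regime and from plowed-in legume in the other, gave 2 rises and 2 falls among 40 genes of uptake and assimilation, with a median log2 change of −0.04. That was 5% in each direction, against 2.47% and 0.47% of all genes. ASNASE2 (Os04g0650700), an asparaginase that releases ammonium from asparagine, had 1059, 1050.4 and 1127 CPM under CF and 681, 755 and 821 CPM under GM (log2 change −0.52, SE 0.09, adjusted p = 0.018). NLP1 (Os03g0131100), a transcription factor of nitrogen use, had 95, 99.8 and 101 CPM and 69.6, 73.2 and 83.6 CPM (log2 change −0.39, SE 0.08, adjusted p = 0.031). The rises were GLT2 (Os05g0555600), an NADH-dependent glutamate synthase, at 5.23, 9.7 and 6.62 CPM and 12.9, 16.5 and 14.7 CPM (log2 change 1.04, SE 0.19, adjusted p = 0.023), and the asparagine synthetase ASN1, at 0.648, 0.97 and 0.459 CPM and 1.51, 1.93 and 2.49 CPM (log2 change 1.56, SE 0.33, adjusted p = 0.032). The rise of ASN1 rested on 13, 18 and 12 reads under CF and 19, 25 and 39 under GM. A shift in asparagine metabolism was not tested. The nitrate reductase gene OsNR1 overlapped, at 68.8, 55 and 77.8 CPM and 100.3, 72.7 and 86 CPM (log2 change 0.36, SE 0.14, adjusted p = 0.231). It was 1 of 8 genes for nitrate reduction, glutamine and glutamate synthesis and ammonium or nitrate transport that were not called, with log2 changes from −0.35 to 0.36. Among 50 nitrate and peptide transporters edgeR, DESeq2 and limma-voom called none, with 3 at an unadjusted p under 0.05, and among 55 amino acid transporters edgeR and limma-voom called none, DESeq2 1 and the unadjusted test 6. Without CF3, GM2 or GM3 none of the nitrogen rises was called, and without CF2 or CF3 none of the falls was. Without CF2 there was 1 rise, and without CF1 or GM2 there was 1 fall. Without CF2 or CF3 the call of ASNASE2 ended (adjusted p up to 0.107), and without CF3, GM2 or GM3 that of GLT2 did so (up to 0.129). Leaving out CF1, CF2, CF3 or GM2 ended the call of NLP1 (adjusted p up to 0.155), and without CF1, CF2, CF3, GM2 or GM3 that of ASN1 did so (up to 0.165).

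Phosphate genes had 4 rises and 1 fall among 52, with a median log2 change of 0.01. Those shares were 7.69% and 1.92%, against 2.47% and 0.47% of all genes. PT8 (Os10g0444700), a phosphate transporter of the plasma membrane, had 71, 78.1 and 70.4 CPM under CF and 93.8, 107 and 87.4 CPM under GM (log2 change 0.39, SE 0.09, adjusted p = 0.037), and PT17, a mitochondrial phosphate carrier, changed by 0.53 (SE 0.12, adjusted p = 0.036). The fall was PAP9B (Os01g0800500), a purple acid phosphatase gene, from 24.6, 23.6 and 22.3 CPM to 15.6, 16.3 and 18.7 CPM (log2 change −0.47, SE 0.10, adjusted p = 0.027). Markers of the phosphate status of the plant were not called. SPX1, a sensor protein whose gene is induced by low phosphate, differed by −0.21 (SE 0.10, adjusted p = 0.310), the regulator PHR2 one of −0.17 (SE 0.07, adjusted p = 0.271) and the sulfolipid enzyme gene SQD2.2 one of −0.28 (SE 0.08, adjusted p = 0.071). Phosphate rises numbered 0 without CF2, CF3 or GM2, 1 without CF1 and 2 without GM3, and 2 under the fit of all 10 libraries. There were 3 falls without GM1. The call of PAP9B and PT8 ended without CF1, CF2, CF3 or GM2 (adjusted p up to 0.192), and without CF2, CF3, GM2 or GM3 that of PT17 did so (up to 0.184).

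**Figure D5:**
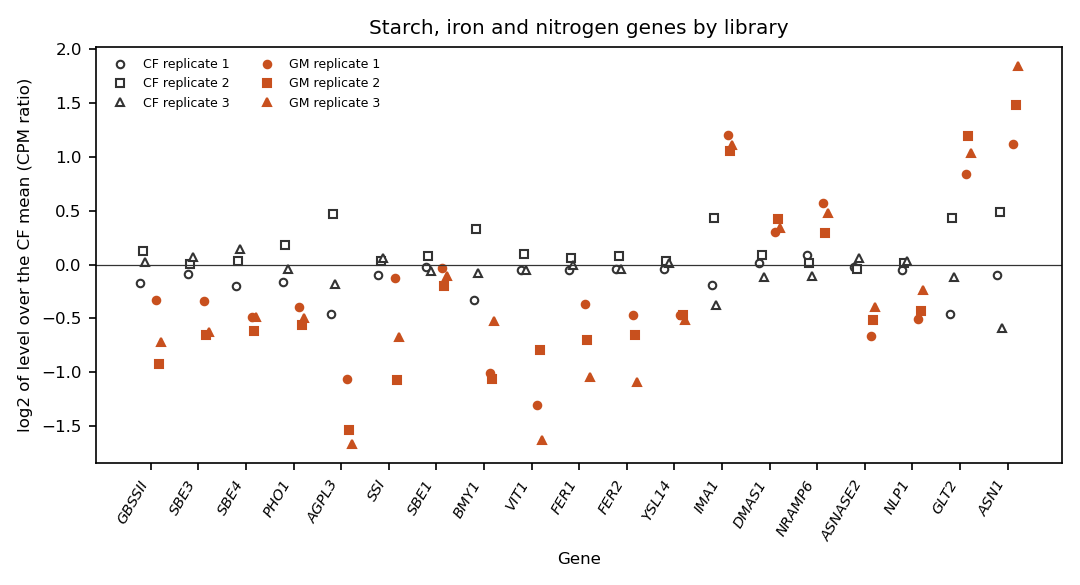
Level of 19 starch, iron and nitrogen genes in each library as log2 of its ratio to the CF mean (y axis), CF replicates open and GM replicates filled. VIT1, FER1, FER2 and the 4 called starch genes lie below the CF libraries, and IMA1, GLT2 and ASN1 lie above them.

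Histone genes rose in part. Of 51 tested 10 rose and none fell, with a median log2 change of 0.32. OsH2A (Os07g0545300) had 18.6, 18.2 and 18.2 CPM under CF and 30.1, 32.1 and 30.5 CPM under GM (log2 change 0.75, SE 0.08, adjusted p = 0.0024), and a histone H3 gene (Os06g0130900) had 69.1, 55.7 and 69.4 CPM and 107, 100.5 and 108 CPM (log2 change 0.70, SE 0.09, adjusted p = 0.0055). Both kept their call throughout. The linker histone H1 gene Os03g0799000 had 153, 129.5 and 144 CPM and 209.6, 232 and 267 CPM (log2 change 0.73, SE 0.10, adjusted p = 0.0058). Genes of the cell cycle and DNA replication did not move with them. None of 50 was called by edgeR, DESeq2 or limma-voom, 3 had an unadjusted p under 0.05, and their median was 0.02. Histone rises numbered 2 without CF2, 4 without CF3, 6 without GM2, 4 without GM3 and 16 without GM1. Histone genes have near-identical copies, so levels from unique reads are uncertain. Without CF2 the call of the histone H1 gene ended (adjusted p up to 0.063).

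Arabinogalactan proteins, cell surface glycoproteins, had 5 rises and no fall among 12 genes tested, with a median log2 change of 0.24. AGP22 (Os02g0718100) had 5.23, 4.8 and 2.95 CPM under CF and 11.2, 12.5 and 9.89 CPM under GM (log2 change 1.39, SE 0.19, adjusted p = 0.0075) and kept its call throughout. AGP21, AGP24 and AGP27 changed by 1.09 (SE 0.19, adjusted p = 0.020), 0.86 (SE 0.13, adjusted p = 0.0092) and 0.53 (SE 0.10, adjusted p = 0.020). The deposited descriptions give AGP22 and AGP24 as non-protein coding transcripts and AGP21 and AGP27 as hypothetical, so their place here rests on their symbols. The remaining rise, AGP, had 1, 1 and 6 reads under CF and is described below. Rises numbered 1 without CF2, 3 without CF3 and 3 without GM3. Among 44 wax and fatty acid genes 2 rose, WSL1, an enzyme of leaf cuticular wax, by 0.70 (SE 0.17, adjusted p = 0.047) and KCS by 0.73 (SE 0.17, adjusted p = 0.045). Among 23 aquaporins the silicon channel gene LSI6 rose by 0.42 (SE 0.10, adjusted p = 0.046) and the water channel gene PIP1;3 fell by 0.47 (SE 0.11, adjusted p = 0.043) on the log2 scale. Rises were 4.55% of the wax and fatty acid genes and 4.35% of the aquaporins, against 2.47% of all genes. Falls were 4.35% of the aquaporins, against 0.47% of all genes. OsBDG1 (Os11g0514400), a small leucine-rich repeat protein of leaf angle and grain size, had 8.62, 7.17 and 5.13 CPM and 14.4, 19.2 and 14.2 CPM (log2 change 1.20, SE 0.19, adjusted p = 0.014). An aspartokinase gene (Os03g0850400), of the pathway to lysine and threonine, had 3.74, 3.83 and 3.86 CPM and 9.22, 11 and 6.19 CPM (log2 change 1.19, SE 0.20, adjusted p = 0.015). Leaving out CF2 ended the call of OsBDG1 (adjusted p up to 0.074), and without CF2 or CF3 that of Os03g0850400 and AGP24 did so (up to 0.079). The call of AGP27 ended without CF2, CF3 or GM3 (adjusted p up to 0.124), and without CF2, GM2 or GM3 that of AGP21 did so (up to 0.101). Without CF2, CF3, GM2 or GM3 the call of PIP1;3 ended (adjusted p up to 0.184), and without CF1, CF2, CF3, GM2 or GM3 that of LSI6 and KCS did so (up to 0.210). Whichever library was left out, the call of WSL1 ended (adjusted p up to 0.210).

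Hormone and clock genes gave isolated calls. LEA9 (Os01g0314800), a late embryogenesis abundant protein, rose from 77.1, 88 and 73.3 CPM to 155, 170.4 and 123 CPM (log2 change 0.91, SE 0.12, adjusted p = 0.0056) and kept its call throughout, while the abscisic acid receptor gene PYL/RCAR4 changed by −0.42 (SE 0.08, adjusted p = 0.021). MAX1D (Os02g0221900), a P450 homologous to MAX1 of Arabidopsis, an enzyme of strigolactone synthesis, fell from 35.2, 32.1 and 32.1 CPM to 18.2, 22.2 and 22.2 CPM (log2 change −0.66, SE 0.10, adjusted p = 0.008). The jasmonate-responsive terpene synthase TPS24 changed by −0.54 (SE 0.10, adjusted p = 0.019). Of 23 clock genes 1 was called, a fall, or 4.35% against 0.47% of all genes. CCA1 (Os08g0157600), a morning-phased clock factor, had 934, 871 and 913 CPM under CF and 762, 606 and 668 CPM under GM (log2 change −0.42, SE 0.10, adjusted p = 0.043). TOC1 and PRR95, clock factors of later phase, had log2 changes of 0.13 (SE 0.08, adjusted p = 0.449) and 0.16 (SE 0.09, adjusted p = 0.406) and were not called. The call of MAX1D ended without CF2 (adjusted p up to 0.053), and without CF2 or CF3 that of TPS24 did so (up to 0.105). Without CF2, CF3 or GM3 the call of PYL/RCAR4 ended (adjusted p up to 0.123), and without CF1, CF2, CF3, GM2 or GM3 that of CCA1 did so (up to 0.183).

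Other transcription factor families gave few calls. Of 53 NAC genes 2 rose, 3.77%, and none fell. AP2/ERF genes had 1 rise and 1 fall among 46, 2.17% each, and bZIP genes 1 and 1 among 57, 1.75% each. Of 75 bHLH genes 2 rose and 1 fell, 2.67% and 1.33%, and of 139 MYB genes 1 and 3, 0.719% and 2.16%. Over all genes the shares were 2.47% and 0.47%. The 5 family medians lay between −0.06 and 0.06. ONAC2 (Os03g0815100), the stress-responsive SNAC1, had 46.7, 43.9 and 52.3 CPM under CF and 87.1, 78.9 and 73.8 CPM under GM (log2 change 0.74, SE 0.09, adjusted p = 0.0042) and kept its call throughout. NAC95 and ERF91 changed by 0.72 (SE 0.13, adjusted p = 0.020) and 1.00 (SE 0.17, adjusted p = 0.016). OsbHLH024, annotated as a negative regulator of salt tolerance, changed by 1.14 (SE 0.18, adjusted p = 0.013). BZIP88 (Os12g0601800) fell from 62.2, 67.9 and 77.1 CPM to 38.8, 42.9 and 42.6 CPM (log2 change −0.74, SE 0.09, adjusted p = 0.0045) and kept its call throughout. The remaining large falls were in genes of varied kinds. They were C3-BTB2 at −0.66 (SE 0.13, adjusted p = 0.025), a Pumilio RNA-binding protein gene (Os09g0497100) at −0.75 (SE 0.18, adjusted p = 0.048), a BED zinc finger gene (Os08g0208700) at −0.73 (SE 0.17, adjusted p = 0.046), the Mediator-related gene OsMed26_2 at −0.68 (SE 0.16, adjusted p = 0.042) and the transcript listed as MIR1428E at −0.69 (SE 0.11, adjusted p = 0.015). The last value is of the whole locus in poly(A) libraries and not of a mature miRNA. Leaving out CF2 or CF3 ended the call of ERF91, OsbHLH024 and MIR1428E (adjusted p up to 0.084), and without CF2, GM2 or GM3 that of NAC95 did so (up to 0.094). The call of C3-BTB2 ended without CF1, CF2, CF3 or GM2 (adjusted p up to 0.117), and without CF1, CF2, GM1 or GM3 that of Os08g0208700 did so (up to 0.168). Without CF2, CF3, GM2 or GM3 the call of Os09g0497100 ended (adjusted p up to 0.210), and that of OsMed26_2 ended whichever library was left out (up to 0.210).

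The largest rises were in genes that were nearly silent under CF. All 17 rises of 4-fold or more had a mean under 5 CPM, and 16 of them stayed under 1 CPM in each CF library. The filter on low counts can be met by the libraries of 1 regime alone. Genes this low under CF could therefore enter the test only through high GM levels, so the pattern is not independent of the filter. The summed level of the 17 was 4.74, 5.55 and 6.85 CPM under CF and 46.8, 31.8 and 25.4 CPM under GM, from 95, 103 and 179 reads and from 589, 412 and 398 reads. GM1 was the highest library for 14 of them. The descriptions of ROPGEF6 and MTD2 among them name pollen, and the genes given here were picked out after their values were seen. OSIPP3 (Os05g0543000), a pectin methylesterase inhibitor, had 0.299, 0.377 and 0.65 CPM and 6.59, 3.17 and 2.17 CPM (log2 change 3.07, SE 0.47, adjusted p = 0.015). ROPGEF6 (Os01g0675000), of pollen tube growth, had 0, 0.162 and 0.459 CPM and 2.46, 1.78 and 1.28 CPM (log2 change 2.95, SE 0.58, adjusted p = 0.026). MTD2, a receptor-like kinase of pollen tube elongation, changed by 3.04 (SE 0.71, adjusted p = 0.046), the arabinogalactan gene AGP by 3.10 (SE 0.57, adjusted p = 0.020), C2DP4 by 3.05 (SE 0.46, adjusted p = 0.0092) and the beta-expansin EXPB9 by 2.09 (SE 0.47, adjusted p = 0.037). ANTH3, annotated in pollen germination, rose by 1.81 (SE 0.42, adjusted p = 0.044), under 4-fold. Leaving out CF2 ended the call of AGP and OSIPP3 (adjusted p up to 0.105), and without CF3 that of C2DP4 did so (up to 0.055). The call of ROPGEF6 ended without CF2 or GM2 (adjusted p up to 0.118), and without CF1, CF2, CF3, GM1 or GM2 that of ANTH3 did so (up to 0.148). Without CF1, CF2, CF3, GM1 or GM3 the call of EXPB9 ended (adjusted p up to 0.134), and that of MTD2 ended whichever library was left out (up to 0.165).

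Broader pollen lists gave fewer calls. Of 36 genes listed as anther and pollen markers 9 were tested and edgeR, DESeq2 and limma-voom called none, with 3 at an unadjusted p under 0.05. The whole list summed to 77.6, 73.6 and 77.8 under CF and 81.7, 87.1 and 81.1 under GM, in CPM, and 16 of the 36 had no read in any leaf library. Of 89 tested genes with pollen in their description 6 rose and none fell, or 6.74% against 2.47% of all genes, with a median of 0.02. Of the 6, ROPGEF6, MTD2 and ANTH3 came from near-silent levels, and EIF3E, HSP60-3B and CPPR1 rose by less than 2-fold. ROPGEF6, MTD2 and ANTH3 could pass the filter on low counts through their GM libraries alone. The share of 6.74% is therefore not independent of the filter. The part of any anther or pollen cells in the other results was not tested. In bulk tissue fewer cells of a type and less RNA per cell cannot be told apart.

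Of the 594 called genes 282 were on at least 1 of the lists and 312 on none. Annotation terms pointed to groups already described. Among 1265 terms with at least 10 genes tested, 662 held no called gene. Among the highest shares of rises were 12 of 21 for translational elongation, 7 of 13 for the cytosolic large ribosomal subunit and 8 of 16 for the C-terminal domain of HSP70. The eukaryotic initiation factor 3 complex had 8 of 18, and structural constituents of chromatin had 11 of 36. The highest share of falls was 2 of 10, both for the ferritin-like superfamily, which had no rise, and for the metal-binding domain of terpene synthases, which also had 2 rises. Terpene synthases by activity had 3 rises and 2 falls among 13. Called genes with the same direction stood side by side among the tested genes in 27 runs, of which 4 held 3 genes. These 4 were in the momilactone cluster (MAS, KS4, CYP99A2), the PR-10 genes (RSOSPR10, PR10B, RPR10c), the EF-1 alpha genes, and AGP22, AGP21 and the mitochondrial carrier ANT. Whether the counting used strand is not given in the sources used here, so runs that include an overlapping or antisense gene may share reads.

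Whether the endosperm changed in the same way was tested directly, by subtracting the GM effect in leaf from the GM effect in endosperm. Of 25035 genes tested in the joint fit of both tissues 154 were called, 0.615%. Of these, 139, or 0.555% of those tested, were below 0, meaning a lower GM effect in endosperm than in leaf. The filter of that fit did not require a gene to be expressed in both tissues. Among the genes given with values above, the lowest of the called differences were in the heat stress group. For HSP20 the difference was −3.18 (SE 0.16, adjusted p = 1.1e-07), and for HSFB2B it was −3.15 (SE 0.23, adjusted p = 5.2e-06). In endosperm alone their log2 changes were −2.26 and −2.32. No difference between tissues was called for RPL35A.3 (−0.44, SE 0.16, adjusted p = 0.292), CPS4 (0.48, SE 1.08, adjusted p = 0.940), VIT1 (0.82, SE 0.26, adjusted p = 0.224) or GBSSII (0.90, SE 0.21, adjusted p = 0.089). A miss of the threshold does not show that the tissues acted alike. The count of 154 was 80 without endosperm library CF1, 88 without leaf library CF2 and 100 without leaf library GM3.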

How the data were processed

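Libraries were directional and made from poly(A) RNA, per the labels' protocols. For each locus the authors deposited a raw count of exon reads that mapped uniquely, per the labels, and the tables hold 37727 loci. The build is named as IRGSP-1.0 by the submitters' processing notes. The aligner, counter and strand setting: not given in the sources used here. Symbols and annotation terms are those of the deposited tables. No sequence or coordinate is printed, because no genome of this build was used here.

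The 6 leaf libraries were fitted alone in R 4.3.3 with edgeR 4.0.16, using filterByExpr by group (minimum count 10), TMM scaling, the robust quasi-likelihood F test and Benjamini-Hochberg adjustment over the 20208 genes tested, with a threshold of 0.05. SE is the size of the log2 change over the square root of F. CPM are TMM-scaled. A joint fit of the 10 libraries, with 25035 genes tested, gave the difference between tissues. Alternatives used DESeq2 1.42.0, limma 3.58.1, other filters and scalings, equal depth and left-out libraries. The fit was also run on simulated counts, whose changes were larger than most of those called here, so that run is not used as support. Tables and plots were made in Python 3.11.15 with pandas 2.3.3 and matplotlib 3.10.9.

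Lists are patterns over symbols, descriptions and domains. The members, lists and naming rule were chosen with earlier results of these data known. The rule took up to 12 rises and 12 falls of largest size whose mean was 5 CPM or more, whose regimes did not overlap and whose name was informative, up to 3 members of smallest p per list, and 60 fixed names, of which 59 matched a locus and 52 passed the filter. Of these 52, 10 rose, 4 fell and 38 were not called. Genes named outside this rule, chosen after their values were seen, are RFA1, RFA4, HSP18.0-CII, AGPL3, CYP76M8, RPR10c, PR5, CEBIP, RBOHE, YSL14, NRAMP6, DMAS1, AGP27, AGP, OSIPP3, C2DP4, MTD2, ANTH3, HSFB2A, HSFB1, HSFA2D, RFA2, BH1, HSP60-3B, CPPR1 and ANT.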

Additional observations from a re-analysis of the deposited data

Results flagged for a closer look

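For 20 of the 140 genes given with values, the GM effect differed between endosperm and flag leaf in a direct test (interaction term of a fit of all 10 libraries, edgeR, adjusted p under 0.05). Values are the endosperm log2 change minus the leaf log2 change. Small heat shock proteins and HSP101 gave HSP24.1 at −2.82, HSP20 at −3.18, HSP17.9A at −1.15, HSP18.0-CII at −2.41 and HSP101 at −2.20. Other chaperones gave HSP82A at −1.90, cHsp70-1 at −2.47, HSP71.1 at −2.18, OsDjB7 at −2.33, OsDjC28 at −1.28 and BIP1 at −0.81, and heat stress factors gave HSFB2B at −3.15, HSFB2C at −1.97 and HSFA2C at −2.05. Further genes were ONAC2 at −1.83, O3 at −0.98, SAT2;2 at −1.42 and YSL7 at −2.49. The difference was above 0 for CCA1 at 0.79 and ZIFL10 at 0.74. HSP101 and HSFA2C were not called in the leaf alone, where their log2 changes were 0.06 and 0.29, and in the endosperm alone their log2 changes were −2.14 and −1.76. The endosperm has 2 libraries per regime. Groups of 3 libraries were not examined for outlying samples.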

How the results depend on the processing

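The count of 594 called genes, 499 rises and 95 falls, moved by more than 1.5 times under some alternatives. Without a filter on low counts, 987 of 29035 genes were called, 776 rises and 211 falls. In the fit of all 10 libraries 335 were called, 268 of them rises. DESeq2 called 166 falls. A test against a 1.5-fold change called 0 rises and 0 falls, 0 in all, with 309 genes at an unadjusted p under 0.05. With a library left out, calls ranged from 40 to 933, rises from 35 to 729 and falls from 5 to 204, and the calls for the difference between tissues ranged from 80 to 204. RLE, upper-quartile scaling, the 5 CPM filter, limma-voom, equal depth and leaving out the 20 most abundant genes kept all 3 counts of the leaf within 1.5 times, and RLE kept that of the tissues. The share of rises ranged from 77.4% (upper-quartile) to 84.7% (limma-voom) over the alternatives with all 6 leaf libraries that made calls. Of the 120 named calls, 7 were lost under RLE, 7 under upper-quartile scaling, 5 with DESeq2, 14 at equal depth and 52 in the fit of all 10 libraries. The sign of a named gene reversed for CPS2, at −0.01 or −0.02 under RLE, upper-quartile scaling, no filter, DESeq2, limma-voom, the fit of all 10 libraries and the replicate block, and for CPS2 and HSP101 with CF replicate 1 left out (−0.12 and −0.02) or GM replicate 2 left out (−0.22 and −0.05). With a library left out CPS2 ranged from −0.22 to 0.16 and HSP101 from −0.05 to 0.12. The cause was not tested. The planned description of promoter motifs was not run, because no promoter sequence of this build was used here.

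The labels number the replicates alike in both regimes, without saying that a number marks a shared plot or day. Deviations of same-numbered libraries from their group means correlated at 0.03, 0.00 and −0.01 across genes. Those of differently numbered libraries correlated at −0.03 to 0.03. No broad shared deviation was seen, but such values cannot tell whether a number marks a shared plot or day. With the replicate number as a block, 713 genes were called, 583 rises and 130 falls, and 134 for the difference between tissues, and 10 named calls were lost.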
